A study of Mus musculus with 18 samples.

Results

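The genes described here are 34 genes of glycolysis and of the response to low oxygen, chosen by symbol from the 46078 genes of the count table, and all 34 were found there and passed the filter on low counts. They comprise 4 glucose and lactate transporters, 15 glycolytic enzymes, 4 genes of the lactate and pyruvate branch, 3 genes for hypoxia-inducible factor 1α (HIF-1α) and its hydroxylases, and 8 genes that low oxygen induces. They were measured by SMART-seq, a full-length cDNA method for small inputs, in 18 bulk libraries, each made from 200 sorted cells of C57BL/6 mice aged 8 weeks. Type 1 innate lymphoid cells (ILC1s, tissue-resident relatives of natural killer cells) came from liver and spleen, and natural killer (NK) cells from liver. Control mice carried Ncr1-Cre, which drives Cre recombinase in cells that make NKp46, and the RARa403 mice carried Ncr1-Cre and also RARα403 at Rosa26, a shortened, dominant-negative form of retinoic acid receptor α that Cre switches on. Every group thus carried Ncr1-Cre, and each of the 6 groups had 3 libraries. Which libraries came from the same animal is not stated in the labels, so p-values here reflect only library-to-library spread, which may be technical. ILC1s had been sorted as CD3-, NK1.1+, NKp46+ and IL-7R+ cells with CD49a and low CD49b, and NK cells as CD3-, NK1.1+ and NKp46+ cells with CD49b and no CD49a.

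Glycolysis breaks glucose down to pyruvate in the cytosol. Lactate dehydrogenase then turns pyruvate into lactate, or the pyruvate dehydrogenase complex passes it to the mitochondria. HIF-1α is a transcription factor that prolyl hydroxylases mark for degradation when oxygen is present. When oxygen falls it accumulates and raises the transcripts of glucose transporters, glycolytic enzymes and genes such as Vegfa and Bnip3. Activated lymphocytes, NK cells included, are known to increase glycolysis.

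Libraries held 3452279 to 9038767 counts, and the 34 genes took 0.493% to 0.629% of the counts in 17 of them but 0.278% in liver NK RARa403 library 1. That library stood apart: 14 of the 34 genes lay below and 7 above all other 17 libraries there, against 0 to 5 outside in each other library, and so did 28.8% and 23.1% of the 14714 genes tested. Rara had 119 to 399 counts in the other 17 libraries and 1764 there, so its counts did not mark the RARa403 libraries. Gt(ROSA)26Sor, a noncoding RNA made from the Rosa26 locus itself, was looked at after its values were known. Controls (9 libraries) held 104 to 1260 counts of it, and RARa403 libraries 2 and 3 of each population held no more than 10. RARa403 library 1 held 0 counts of it for liver NK cells but 365 for spleen ILC1s and a similar number for liver ILC1s, which lay inside the control range. Many results that rest on RARa403 libraries are therefore also given without liver NK RARa403 library 1, or with replicates 2 and 3 of every group alone. Summed markers set the ILC1 libraries apart from the NK libraries. ILC1 markers summed to 2240 to 4540 CPM (counts scaled to library size) in the 12 ILC1 libraries and 166 to 519 in the 6 NK libraries, and NK markers to 122 to 1760 and 3270 to 6990. Liver ILC1 RARa403 library 1 held 1730 CPM of NK markers, against 122 to 349 in the other liver ILC1 libraries. It also had the lowest ILC1 marker sum of the liver ILC1 libraries, 2740 CPM. In the 6 liver ILC1 libraries hepatocyte markers summed to at most 79.3 CPM and Kupffer cell and macrophage markers to at most 98.8 CPM, and neutrophil markers to at most 8.35 CPM.

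The largest differences among the 34 genes lay between cell types. Ldhb, which encodes the lactate dehydrogenase subunit abundant in heart, had transcripts in all 12 ILC1 libraries and none in the 6 NK libraries. Pfkp, the platelet isoform of phosphofructokinase, which commits glucose to glycolysis, was lower in all 6 liver ILC1 libraries than in all 6 liver NK libraries, by 3.69-fold among RARa403 libraries and 2.96-fold among controls. Only the RARa403 difference passed with all libraries, and only the control difference passed when liver NK RARa403 library 1 was left out. Plod2, a lysyl hydroxylase that prepares collagen for cross-linking, was lower in liver ILC1s than in NK cells among RARa403 libraries. Among the abundant genes of the pathway, Ldha and Pkm overlapped between all groups. For RARa403 against control edgeR's test passed 0 of the 34 genes in each population, against 0.0% of all genes tested. DESeq2 passed Plod2 in liver ILC1s and Pfkm in liver NK cells. No share over all genes is given here for DESeq2, so its calls cannot be set against it.

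The sequence before the start site is shown for the 2 genes that carry the cell type difference and have an entry among the RefSeq promoters (GRCm38.p6), Ldhb and Pfkp. Plod2 has no entry. Capitals mark the HIF core, the letters ACGTG or GCGTG on either strand, and each line gives the 250 bases before the start, read 5′ to 3′ on the gene's own strand. Ldhb lies on the minus strand at chr6:142507958-142508207 and Pfkp on the minus strand at chr13:6648772-6649021.
Ldhb: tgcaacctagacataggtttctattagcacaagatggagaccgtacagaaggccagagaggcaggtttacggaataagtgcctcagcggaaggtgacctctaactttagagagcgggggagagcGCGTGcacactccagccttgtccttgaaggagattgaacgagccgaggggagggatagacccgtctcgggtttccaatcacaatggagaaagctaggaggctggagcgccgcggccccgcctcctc
Pfkp: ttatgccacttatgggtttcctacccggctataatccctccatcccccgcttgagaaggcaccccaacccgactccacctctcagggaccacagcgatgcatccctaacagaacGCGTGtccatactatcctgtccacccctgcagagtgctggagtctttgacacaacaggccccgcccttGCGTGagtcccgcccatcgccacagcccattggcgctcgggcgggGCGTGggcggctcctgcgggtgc
In the stretch of Ldhb the core occurs once, as GCGTG at position −126 from the start, and AGGTCA, a binding motif of retinoic acid receptors, occurs once on the other strand at position −157. Pfkp has GCGTG at positions −136, −68 and −23 and again at position 30 of the transcript, beyond the printed stretch. Windows from 250 bases before to 50 after a start were found for 30 of the 34 genes, 44 windows in all. The core occurred in 36 of these 44 windows (81.8%), against 44.0% of all 32544 windows. The receptor motif was searched on both strands in 4 forms. AGGTCA was the first form and AGTTCA was the other form that begins with A. GGGTCA was the third form, and the last of the forms was GGTTCA. Any of them occurred in 38.6% of the 44 windows and 43.7% of all, and in the Ldhb stretch the motif and the core do not overlap. The core contains a CG dinucleotide, and the 44 windows held a median of 20.5 CG dinucleotides against 7.0 in all windows, so its part in the share was not tested. These matches describe letters, not binding.

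**Figure D1:**
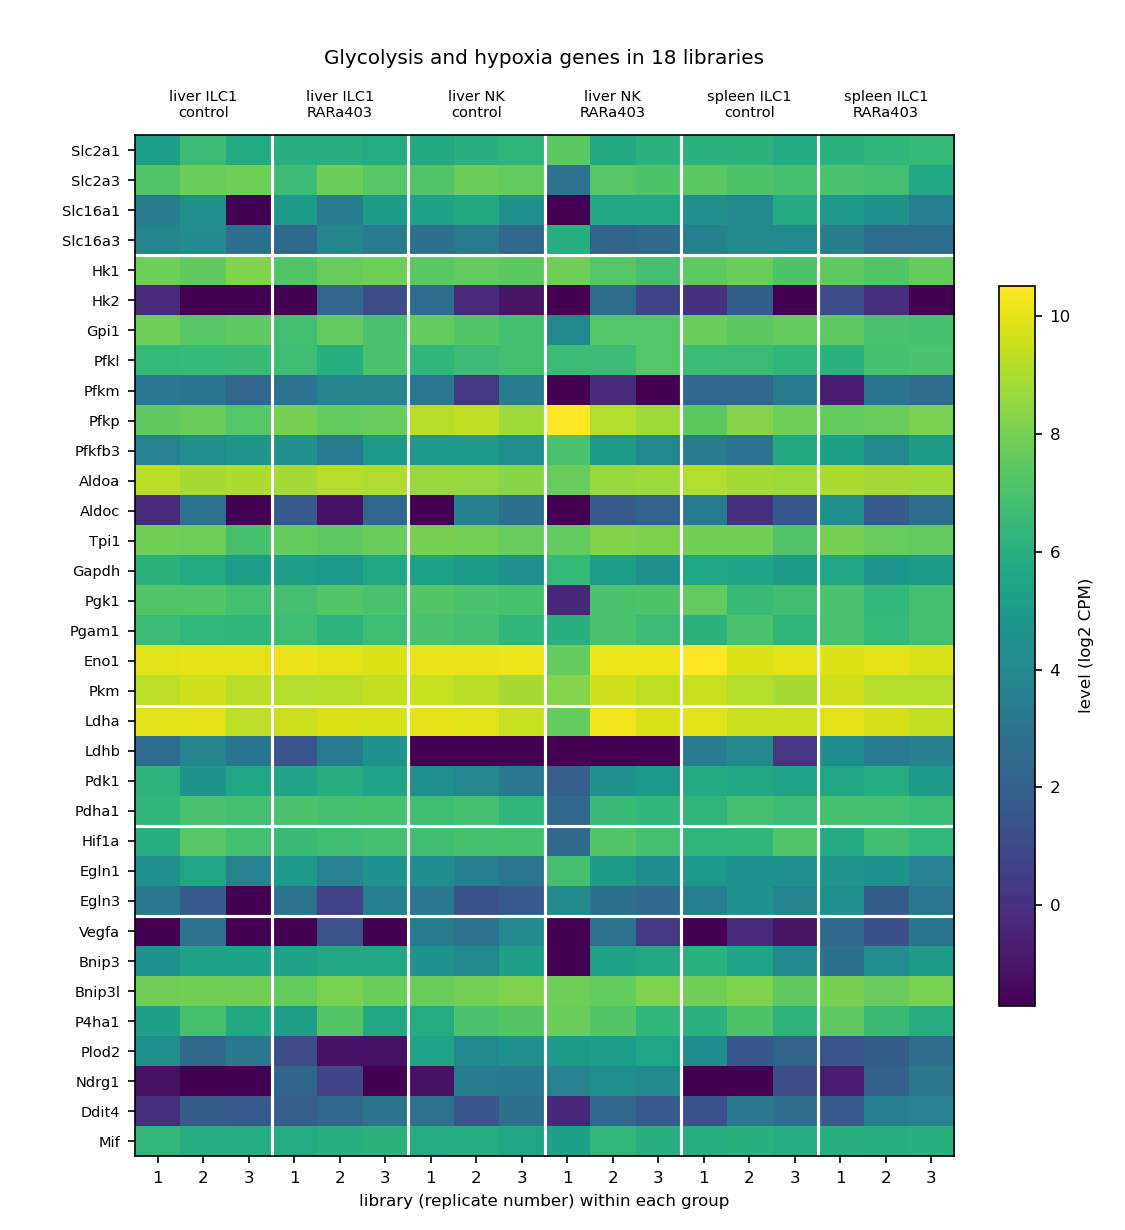
Level of the 34 genes (rows, grouped from top to bottom as transporters, glycolytic enzymes, lactate and pyruvate branch, HIF and its hydroxylases, hypoxia-induced genes) in 18 libraries (columns, 3 per group), in log2 CPM by colour. Ldhb is dark in all 6 NK columns, and liver NK RARa403 library 1 differs from its neighbours in many rows.

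Levels between genes are compared here as CPM per kilobase of exon, as the median of the 17 libraries without liver NK RARa403 library 1. The length was the union of all annotated exons, which can exceed a transcript. It was 3310 bases for Ldha and 5379 for Eno1, against longest coding transcripts of 1815 and 2027 bases. The order and percentages below therefore depend on the length used. Ldha, the main lactate dehydrogenase subunit of muscle and of activated lymphocytes, was highest at 279, above 98.7% of the genes tested. Eno1 (enolase) followed at 198, Aldoa (aldolase A) at 167, and Pkm (pyruvate kinase) at 123, all above at least 97.3% of the genes tested. Tpi1 (triosephosphate isomerase) and Mif, a cytokine that low oxygen induces, were both at 82.6, and Bnip3l, a mitophagy receptor, at 63.3. At the low end were Plod2 at 1.19, Aldoc at 1.03, Vegfa at 0.510, Ndrg1 at 0.227 and Hk2 at 0.113 CPM per kilobase. Among the transporters, Slc2a3 (GLUT3) at 20.9 and Slc2a1 (GLUT1) at 19.0 were close, and the lactate transporters Slc16a1 (MCT1) and Slc16a3 (MCT4) were at 5.32 and 1.82.

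Shares of isozyme transcripts were taken from these levels. Of the summed Hk1 and Hk2 level per length, Hk2, the inducible hexokinase, held at most 3.17% in the 12 ILC1 libraries and at most 5.06% in the 6 NK libraries. Aldoc held at most 3.55% of the summed Aldoa and Aldoc level in ILC1s and at most 2.87% in NK cells. Of phosphofructokinase, the platelet form Pfkp held 47.4%, 50.8% and 42.6% in control liver ILC1 libraries and 75.1%, 75.7% and 61.3% in control liver NK libraries. In RARa403 libraries Pfkp held 52.0%, 52.4% and 39.5% in liver ILC1s and 88.0%, 72.5% and 58.7% in liver NK cells. The 6 liver ILC1 libraries (39.5% to 52.4%) and the 6 NK libraries (58.7% to 88.0%) did not overlap, nor did they without NK RARa403 library 1, where NK cells spanned 58.7% to 75.7%. Spleen ILC1s reached 58.8%. Pfkl, the liver form, held most of the remainder, 33.2% to 52.2% in ILC1s. Ldhb held 0.248% to 5.28% of the lactate dehydrogenase level in ILC1s and 0% in NK cells. These shares are descriptions without a test, and their size depends on the length used. The exon union was 13401 bases for Pfkp and 6675 for Pfkl, against longest coding transcripts of 4145 and 3730 bases. With transcript lengths the share of Pfkp would be larger.

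Glucose transporters differed little. Levels below are in log2 CPM (2 counts added as a prior), and the 3 values of a group are its libraries 1, 2 and 3. Slc2a1 in liver ILC1s stood at 5.21, 6.67 and 5.78 log2 CPM for control and 5.89, 6.00 and 5.81 for RARa403 libraries, and in liver NK cells 5.74, 6.06 and 6.23 and 7.44, 5.72 and 6.12. In spleen ILC1s Slc2a1 had 6.08, 6.16 and 5.79 and 6.08, 6.34 and 6.46. Slc2a1 overlapped in every comparison made, and liver NK RARa403 library 1 was the highest of all. Slc2a3 gave 7.21, 7.76 and 7.81 log2 CPM in the control and 6.69, 7.72 and 7.33 in the RARa403 liver ILC1s, and 7.20, 7.78 and 7.56 and 2.88, 7.32 and 7.14 in liver NK cells. Spleen ILC1s had Slc2a3 at 7.44, 7.14 and 6.98 and 7.04, 6.81 and 5.65. Slc2a3 also overlapped in every comparison made, and the same library was the lowest of all. Slc16a3 in liver ILC1s stood at 3.81, 4.20 and 2.77 log2 CPM for control and 2.40, 3.92 and 3.26 for RARa403 libraries, and in liver NK cells 2.80, 3.40 and 2.34 and 6.00, 2.21 and 2.54. In spleen ILC1s Slc16a3 had 3.68, 4.02 and 4.08 and 3.41, 2.55 and 2.59. Slc16a3, which exports lactate, lay lower in the 3 RARa403 than in the 3 control spleen ILC1 libraries, with a log2 fold change of −1.05 (SE 0.87, adjusted p = 1 in edgeR's quasi-likelihood test), and −1.54 (SE 0.71, adjusted p = 1) with replicates 2 and 3 alone. Control spleen ILC1s were above control liver NK cells without overlap, by 1.06 (SE 0.87, adjusted p = 1). Slc16a1, which carries lactate in both directions, spanned −1.71 to 5.79 in the 17 libraries and was at 0 counts in control liver ILC1 library 3. It was lower in each control liver ILC1 than in each control NK library, by −1.89 (SE 1.34, adjusted p = 0.883).

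Hk1, the hexokinase that phosphorylates glucose in resting cells, stood above Hk2 in every library. Hk3, a hexokinase of the further lists below, had group means from 2.45 (RARa403 liver NK cells) to 5.98 log2 CPM (RARa403 spleen ILC1s). Transcript levels do not show which enzyme is in use. Hk1 in liver ILC1s stood at 7.84, 7.55 and 8.18 log2 CPM for control and 7.22, 7.66 and 7.84 for RARa403 libraries, and in liver NK cells 7.41, 7.56 and 7.45 and 7.88, 7.28 and 6.91. In spleen ILC1s Hk1 had 7.49, 7.78 and 7.17 and 7.5, 7.27 and 7.65. Hk2 gave 4, 0 and 0 counts in the control and 0, 31 and 13 in the RARa403 liver ILC1s, 40, 5 and 1 and 0, 52 and 9 in liver NK cells, and 6, 25 and 0 and 12, 4 and 0 in spleen ILC1s. Hk1 overlapped between all groups, while Hk2 had 0 counts in 6 libraries and no more than 52 in any. Gpi1 (glucose-6-phosphate isomerase) spanned 6.82 to 7.84 and Pfkl 5.97 to 7.28 log2 CPM in the 17 libraries.

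Pfkp measured 7.55, 7.77 and 7.29 log2 CPM in control and 8.02, 7.63 and 7.66 in RARa403 liver ILC1s. Liver NK libraries gave 9.20, 9.33 and 8.75 in control and 10.49, 9.09 and 8.79 in RARa403 mice. In spleen ILC1s Pfkp measured 7.46, 8.30 and 7.84 and 7.61, 7.66 and 8.08. Pfkp was lower in each of the 6 liver ILC1 libraries than in each of the 6 NK libraries, and the 6 spleen ILC1 libraries, 7.46 to 8.30, also lay below them. Among RARa403 libraries the difference passed, with a log2 fold change of −1.88 (SE 0.38, 3.69-fold lower, adjusted p = 0.0422, edgeR). Without liver NK RARa403 library 1 it was −1.15 (SE 0.25, adjusted p = 0.0552), and with replicates 2 and 3 alone −1.31 (SE 0.26, adjusted p = 0.0429). The call held in 7 of 15 alternatives, with adjusted p from 0.000129 to 0.859. Among control libraries it was −1.56 (SE 0.38, 2.96-fold lower) and did not pass (adjusted p = 0.0882). When the outlying library was left out of the shared fit the control difference stayed at −1.57 with an SE of 0.23 and an adjusted p of 0.00176, and over its 15 alternatives the adjusted p ranged from 0.000822 to 0.391. Pfkp shares 17.1% of its 50-base windows with Pitrm1, a gene on the opposite strand that overlaps it and had 5749 counts in all against 42460 for Pfkp. Pfkm gave 61, 28 and 22 counts in the control and 48, 90 and 95 in the RARa403 liver ILC1s, 53, 8 and 60 and 0, 5 and 0 in liver NK cells, and 41, 39 and 55 and 2, 49 and 48 in spleen ILC1s. Pfkm, the muscle form, was lowest in RARa403 NK cells, where RARa403 against control had a log2 fold change of −4.83 (SE 1.40, adjusted p = 0.428 in edgeR). DESeq2 passed it with an adjusted p of 0.0122, and the range over 14 alternatives was 0.0122 to 1. Among RARa403 libraries liver ILC1s were above NK cells by 5.64 (SE 1.45, adjusted p = 0.153), which passed in 4 of 15 alternatives (0.000363 to 0.804). Pfkm overlaps Senp1, which had 9260 counts in all against 704 for Pfkm. Pfkfb3 makes the activator of phosphofructokinase. Pfkfb3 in liver ILC1s stood at 3.72, 4.28 and 4.66 log2 CPM for control and 4.49, 3.39 and 4.92 for RARa403 libraries, and in liver NK cells 4.86, 4.87 and 4.40 and 7.03, 4.96 and 4.0. In spleen ILC1s Pfkfb3 had 3.43, 2.99 and 5.74 and 5.22, 3.99 and 5.04. Pfkfb3 overlapped between all groups, and liver NK RARa403 library 1 was highest.

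Aldoa measured 9.25, 8.93 and 9.0 log2 CPM in control and 8.86, 9.15 and 9.04 in RARa403 liver ILC1s. Liver NK libraries gave 8.62, 8.57 and 8.34 in control and 7.69, 8.63 and 8.74 in RARa403 mice. In spleen ILC1s Aldoa measured 9.10, 8.88 and 8.80 and 9.02, 8.87 and 8.82. Aldoa, which splits fructose bisphosphate, was slightly higher in each of the 3 control liver ILC1 libraries than in each control NK library, a difference of 0.55 (SE 0.25) that did not pass (adjusted p = 0.607, edgeR). Among RARa403 libraries it was 0.60 (SE 0.25, adjusted p = 0.339), and 0.36 (SE 0.16, adjusted p = 0.712) without liver NK RARa403 library 1. Aldoc gave 4, 25 and 0 counts in the control and 20, 1 and 36 in the RARa403 liver ILC1s, 0, 113 and 37 and 0, 30 and 26 in liver NK cells, and 85, 5 and 16 and 140, 20 and 49 in spleen ILC1s. Aldoc, the brain isoform, had 0 counts in 3 libraries and at most 140.

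The later enzymes follow in the order of the pathway. Gapdh in liver ILC1s stood at 6.17, 5.75 and 5.13 log2 CPM for control and 5.13, 4.85 and 5.56 for RARa403 libraries, and in liver NK cells 5.37, 5.06 and 4.47 and 6.49, 5.08 and 4.48. In spleen ILC1s Gapdh had 5.46, 5.42 and 4.96 and 5.54, 4.71 and 4.94. Gapdh (glyceraldehyde-3-phosphate dehydrogenase) overlapped between all groups. Pgk1 gave 7.27, 7.25 and 6.85 log2 CPM in the control and 6.93, 7.27 and 7.04 in the RARa403 liver ILC1s, and 7.25, 7.04 and 6.97 and −0.34, 7.05 and 7.13 in liver NK cells. Spleen ILC1s had Pgk1 at 7.57, 6.53 and 6.77 and 7.05, 6.41 and 6.90. Pgk1 (phosphoglycerate kinase) overlapped too, with 2 counts in liver NK RARa403 library 1. Gapdh is uncertain in level. Of its 50-base windows 82.5% occur in other genes too, 213 of these 222 genes being pseudogenes, and the 204 of those genes that are in the table held 19316 counts in all against 4658 for Gapdh. Pkm in liver ILC1s stood at 9.28, 9.64 and 9.25 log2 CPM for control and 9.09, 9.20 and 9.40 for RARa403 libraries, and in liver NK cells 9.47, 9.25 and 8.94 and 8.24, 9.62 and 9.33. In spleen ILC1s Pkm had 9.52, 9.15 and 8.92 and 9.66, 9.18 and 9.15. Pkm makes pyruvate, and its libraries other than liver NK RARa403 library 1 spanned less than a doubling, 8.92 to 9.66. Tpi1 spanned 6.95 to 8.22, Pgam1 (phosphoglycerate mutase) 6.17 to 7.03 and Eno1 9.80 to 10.52 in the 17 libraries. Eno1 was lower in each control liver ILC1 library than in each control NK library, by −0.18 (SE 0.42, adjusted p = 1). Eno1, Pgk1, Pgam1 and Pkm share 72.2%, 68.0%, 41.5% and 34.4% of their 50-base windows with other genes, so their levels are also uncertain.

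Ldha in liver ILC1s stood at 9.93, 9.95 and 9.30 log2 CPM for control and 9.58, 9.86 and 9.79 for RARa403 libraries, and in liver NK cells 10, 9.90 and 9.47 and 7.64, 10.27 and 9.77. In spleen ILC1s Ldha had 9.94, 9.54 and 9.54 and 9.98, 9.74 and 9.42. Ldha overlapped between all groups and was lowest in liver NK RARa403 library 1. Ldhb gave 43, 46 and 37 counts in the control and 16, 63 and 166 in the RARa403 liver ILC1s. All 6 liver NK libraries, control and RARa403, had 0 counts of Ldhb. In spleen ILC1s Ldhb had 89, 113 and 5 in control and 121, 59 and 96 in RARa403 libraries. Ldhb was thus detected in every ILC1 library of both organs and both genotypes, with 5 counts at the lowest, and in no NK library. A count of 0 with a floor of 3 counts allows up to 0.332 to 0.524 CPM in an NK library, an interval that covers counting error only. At that floor per library, Ldhb was at least 20.7-fold higher in control liver ILC1s than in control NK cells. The same bound was at least 27.2-fold among RARa403 libraries and at least 20.9-fold for control spleen ILC1s against control liver NK cells. Without liver ILC1 RARa403 library 3, which had the most counts, the bound among RARa403 libraries was 13.5-fold, and without control spleen ILC1 library 2 the spleen bound was 13.3-fold. The test passed in all 3, with adjusted p = 0.0326, 0.0360 and 0.0470 (edgeR's quasi-likelihood test, Benjamini-Hochberg). The fitted log2 fold changes, 8.88 (SE 1.63), 9.27 (SE 1.67) and 8.88 (SE 1.63), depend on the prior count. Leaving out any 1 of the 6 control libraries of liver ended the call in controls, with an adjusted p of at most 0.147 and a log2 fold change of 7.02 to 9.10 over its 15 alternatives. Among RARa403 libraries the call was lost in 9 of 15 alternatives (adjusted p 8.12e-06 to 0.648), and in spleen in 8 of 14 (1.1e-05 to 0.214). Without liver NK RARa403 library 1 the adjusted p among RARa403 libraries was 0.0548, and with replicates 2 and 3 alone 0.0675. Ldhb (ENSMUSG00000030246, mm10 chromosome 6, 142490249 to 142507957, protein coding) shares 27.0% of its 50-base windows with 1 pseudogene, Gm5514, which had 23 counts in all.

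Markers of other lymphocytes moved with the same contrast. T cell markers summed to 1390 to 2220 CPM in the 12 ILC1 libraries and 751 to 1190 in the 6 NK libraries, and in liver controls 6 of the 11 were higher and 1 lower without overlap. Cd8a, Cd8b1 and Cd5 had 0 counts in every liver NK library, but Cd8a and Cd8b1 also had 0 in all 3 RARa403 liver ILC1 libraries. B cell markers summed to 349 to 3460 CPM in ILC1s and 23.5 to 374 in NK cells, with 2 of 9 higher without overlap in liver controls. Ms4a1 and Igkc were at 0 in the control liver ILC1 libraries, and Ms4a1 also in the RARa403 liver ILC1 and control liver NK libraries. Erythroid markers summed to 4.99 to 2690 CPM in ILC1s and 0 to 62.9 in NK cells, endothelial markers to 44.9 to 313 and 15.0 to 99.4, and handling stress markers to 617 to 1810 and 693 to 1150. Their part in the Ldhb difference was not tested. In bulk libraries, fewer cells with a transcript and less transcript per cell cannot be told apart.

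**Figure D2:**
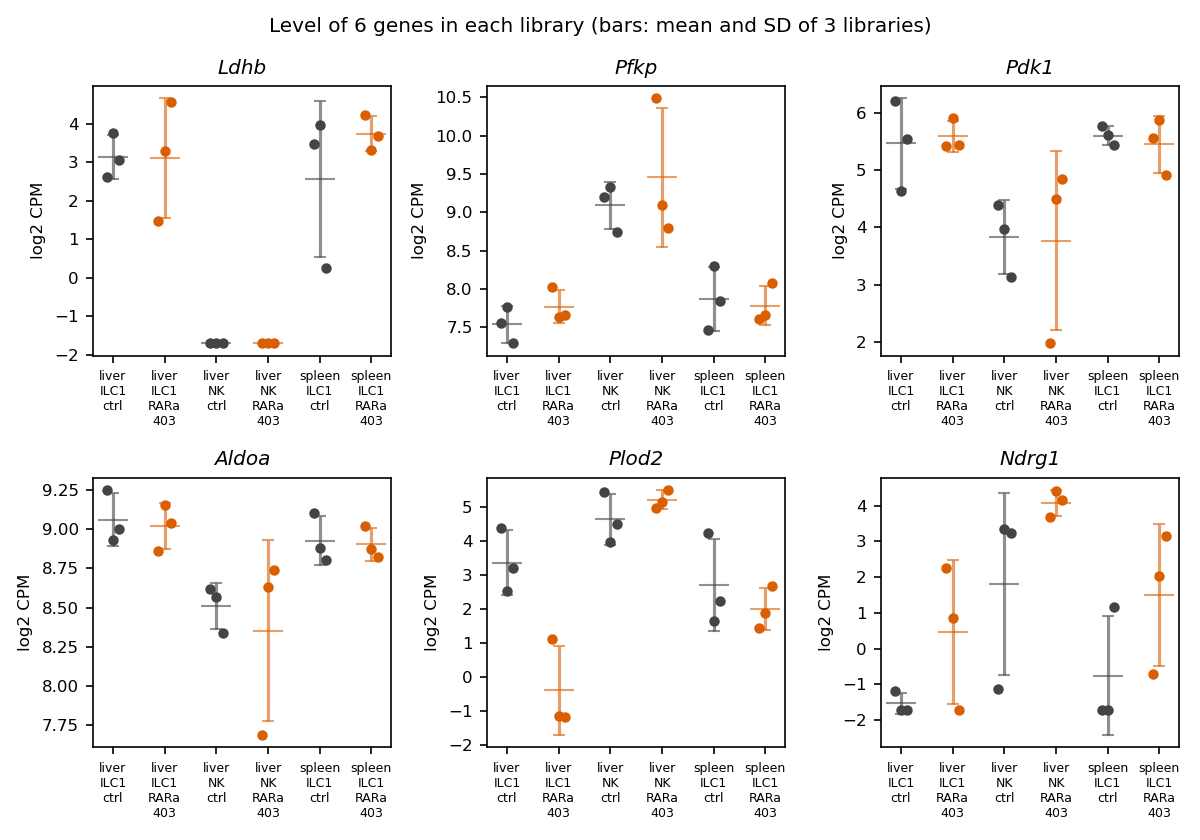
Level in log2 CPM of 6 genes in each library (points) by group, with the mean and SD of 3 libraries (bars). NK libraries stand lowest for Ldhb, at the level of 0 counts, and highest for Pfkp, and liver ILC1 RARa403 libraries stand lowest for Plod2.

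Pdk1 measured 6.21, 4.64 and 5.54 log2 CPM in control and 5.42, 5.90 and 5.44 in RARa403 liver ILC1s. Liver NK libraries gave 4.39, 3.97 and 3.13 in control and 1.98, 4.49 and 4.84 in RARa403 mice. In spleen ILC1s Pdk1 measured 5.76, 5.61 and 5.43 and 5.55, 5.88 and 4.91. Pdk1 is the kinase that inhibits pyruvate dehydrogenase and so keeps pyruvate out of the mitochondria. All 3 control liver ILC1 libraries lay above the 3 control NK libraries, by 1.71 (SE 0.60, 3.27-fold), which did not pass (adjusted p = 0.402, edgeR). It passed in 1 of 15 alternatives, with the outlying library left out of the shared fit (1.72, SE 0.41, adjusted p = 0.0440, range over the 15 alternatives 0.0440 to 1). Control spleen ILC1s were higher than control liver NK cells by the same 1.71 (SE 0.60, adjusted p = 0.503). Among RARa403 libraries the difference was 1.42 (SE 0.60, adjusted p = 0.348), and 0.95 (SE 0.46, adjusted p = 0.722) without liver NK RARa403 library 1. Pdha1, the catalytic subunit that Pdk1 inhibits, spanned 6.30 to 7.05 in the 17 libraries and stood at 2.43 in liver NK RARa403 library 1. The mean level of these 4 genes of the lactate and pyruvate branch was 6.26 ± 0.08 log2 CPM in control liver ILC1s and 4.64 ± 0.29 in control NK cells (SD, n = 3), a description without a test that includes Ldhb.

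Hif1a in liver ILC1s stood at 5.99, 7.35 and 6.85 log2 CPM for control and 6.57, 6.75 and 6.89 for RARa403 libraries, and in liver NK cells 6.79, 6.96 and 6.94 and 2.5, 7.26 and 6.90. In spleen ILC1s Hif1a had 6.30, 6.33 and 7.22 and 5.78, 6.79 and 6.41. Hif1a, the oxygen-regulated transcription factor itself, overlapped between all groups. Egln3 gave 3.12, 1.79 and −1.71 log2 CPM in the control and 2.93, 0.72 and 3.57 in the RARa403 liver ILC1s, and 3.12, 1.34 and 1.80 and 4.15, 2.80 and 2.45 in liver NK cells. Spleen ILC1s had Egln3 at 3.55, 4.55 and 3.77 and 4.44, 1.90 and 3.10. Egln3 and Egln1 encode prolyl hydroxylases that mark HIF-1α. Egln3 was higher in each control spleen ILC1 library than in each control liver ILC1 and NK library, by 2.03 (SE 1.21) and 1.80 (SE 1.2), and neither passed (adjusted p = 1 and 0.926, edgeR). Egln1 had 4.24, 3.59 and 3.10 log2 CPM in control and 6.91, 4.96 and 4.25 in RARa403 NK libraries, all 3 RARa403 libraries above the controls. The difference was 2.13 (SE 0.68, adjusted p = 0.428), and 0.93 (SE 0.57, adjusted p = 1) without liver NK RARa403 library 1.

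Hypoxia-induced genes were of several levels. Bnip3l in liver ILC1s stood at 7.88, 7.94 and 7.88 log2 CPM for control and 7.61, 8.06 and 7.78 for RARa403 libraries, and in liver NK cells 7.77, 7.97 and 8.15 and 7.83, 7.65 and 8.14. In spleen ILC1s Bnip3l had 7.91, 8.16 and 7.55 and 8.02, 7.70 and 8.08. Bnip3l overlapped between all groups. Mif gave 6.38, 5.87 and 5.86 log2 CPM in the control and 5.82, 5.94 and 6.15 in the RARa403 liver ILC1s, and 5.83, 5.84 and 5.47 and 5.27, 6.38 and 6.00 in liver NK cells. Spleen ILC1s had Mif at 5.93, 6.05 and 5.88 and 6.01, 5.91 and 6.03. Mif was higher in each control liver ILC1 and each control spleen ILC1 library than in each control NK library, by 0.34 (SE 0.31) and 0.24 (SE 0.31), each with an adjusted p of 1. Mif and Bnip3 share 76.4% and 62.4% of their 50-base windows with other genes, so their levels are uncertain. P4ha1 in liver ILC1s stood at 5.31, 6.97 and 5.73 log2 CPM for control and 5.16, 7.27 and 5.57 for RARa403 libraries, and in liver NK cells 5.82, 7.04 and 7.23 and 7.75, 7.26 and 6.36. In spleen ILC1s P4ha1 had 6.11, 7.10 and 6.20 and 7.51, 6.56 and 5.91. P4ha1, a collagen prolyl hydroxylase, overlapped between all groups. Bnip3 gave 4.56, 5.37 and 5.38 log2 CPM in the control and 5.32, 5.65 and 5.64 in the RARa403 liver ILC1s, and 4.52, 3.98 and 5.30 and −1.71, 5.39 and 5.66 in liver NK cells. Spleen ILC1s had Bnip3 at 6.12, 5.41 and 4.11 and 2.81, 4.27 and 5.01. Bnip3, a mitophagy receptor like Bnip3l, had 0 counts in liver NK RARa403 library 1 and was otherwise between 2.81 and 6.12. Ddit4 gave 5, 12 and 14 counts in the control and 24, 33 and 54 in the RARa403 liver ILC1s, 45, 23 and 38 and 2, 46 and 20 in liver NK cells, and 19, 64 and 34 and 21, 71 and 98 in spleen ILC1s. Ddit4, an inhibitor of mTORC1 known as REDD1, ranged from 2 to 98 counts. In CPM it was higher in each RARa403 than in each control liver ILC1 library, by 1.19 (SE 0.99, adjusted p = 1), and by 0.95 (SE 0.81, adjusted p = 1) with replicates 2 and 3 alone.

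Plod2 gave 152, 19 and 41 counts in the control and 12, 1 and 1 in the RARa403 liver ILC1s. Liver NK cells had Plod2 at 280, 139 and 127 in control and 127, 320 and 271 in RARa403 libraries. In spleen ILC1s Plod2 had 155, 21 and 25 in control and 16, 21 and 47 in RARa403 libraries. Plod2 (ENSMUSG00000032374, mm10 chromosome 9, 92542223 to 92608428, protein coding) was lower in each of the 3 RARa403 than in each of the 3 control liver ILC1 libraries, and in spleen ILC1s and NK cells the genotypes overlapped. Among RARa403 libraries liver ILC1s were below NK cells, with a log2 fold change of −5.67 (SE 1.10, 50.9-fold lower, adjusted p = 0.0317, edgeR). It was −5.77 (SE 1.11, adjusted p = 0.0227) without liver NK RARa403 library 1 and −7.94 (SE 0.84, adjusted p = 0.00240) with replicates 2 and 3 alone. The call held in 12 of 15 alternatives and was lost without liver ILC1 RARa403 library 2 or 3 and with only the groups compared, with adjusted p between 9.63e-08 and 0.634. Among control libraries Plod2 overlapped between the cell types. RARa403 against control in liver ILC1s gave −4.0 (SE 1.03, unadjusted p = 0.00130) and did not pass (adjusted p = 1, edgeR). DESeq2 passed it, with −4.06 (SE 0.91, adjusted p = 0.00501), and the range over the 15 alternatives was 0.00501 to 1. With replicates 2 and 3 alone it was −5.45 (SE 0.79, adjusted p = 0.120). The RARa403 effect in liver ILC1s minus that in liver NK cells was −4.46 (SE 1.34, adjusted p = 0.798), and the effect in spleen minus that in liver ILC1s was 2.89 (SE 1.31, adjusted p = 1), so a difference between populations did not pass.

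Ndrg1 gave 1, 0 and 0 counts in the control and 29, 10 and 0 in the RARa403 liver ILC1s, 1, 89 and 51 and 52, 187 and 105 in liver NK cells, and 0, 0 and 11 and 2, 23 and 66 in spleen ILC1s. Ndrg1, a hypoxia-induced gene of cell differentiation, had 187 counts at the highest and 0 to 1 counts in control liver ILC1s. In log2 CPM each RARa403 NK library lay above each control one, by 1.42 (SE 1.72, adjusted p = 0.854, edgeR). With replicates 2 and 3 alone this was 1.00 (SE 1.55). Control liver ILC1s were below control NK cells by a log2 fold change of −6.38 (SE 2.28) that did not pass (adjusted p = 0.413, edgeR), and NK control library 1, with 1 count, was as low as the highest ILC1 library in counts. Vegfa gave 0, 26 and 0 counts in the control and 0, 16 and 0 in the RARa403 liver ILC1s, 63, 64 and 93 and 0, 63 and 6 in liver NK cells, and 0, 4 and 1 and 35, 13 and 61 in spleen ILC1s. Vegfa, the growth factor of blood vessels, had 63 or more counts in each control NK library and 4 or fewer in each control spleen ILC1 library, a difference of −5.42 (SE 2.41, adjusted p = 0.679). In control liver ILC1 library 2 it had 26 counts. Each RARa403 spleen ILC1 library lay above each control one for Vegfa, by 4.32 (SE 2.30, unadjusted p = 0.0787, edgeR). This was the largest spleen difference of the 34 genes and did not pass. With replicates 2 and 3 alone it was 3.70 (SE 2.18). In log2 CPM each RARa403 NK library lay below each control one, by −2.03 (SE 2.05, adjusted p = 0.836, edgeR), and −1.56 (SE 1.93) with replicates 2 and 3 alone. The mean of the 8 hypoxia-induced genes was 3.49 ± 0.42 log2 CPM in control liver ILC1s, 3.61 ± 0.09 in control spleen ILC1s and 4.66 ± 0.40 in control NK cells (SD, n = 3). In RARa403 libraries it was 3.40 ± 0.43, 4.18 ± 0.51 and 4.39 ± 1.04 in the same order. The gap between control liver ILC1s and NK cells was widest for Vegfa (−0.16 against 3.43) and Ndrg1 (−1.53 against 1.82), both near the floor in ILC1s. Bnip3 and Mif went the other way. These means are descriptions without a test.

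Counts of genes passing the test were read against all genes tested. For liver ILC1s set against liver NK cells, both control, 1 of the 34 genes passed an adjusted p of 0.05, against 0.605% of all genes tested, and it was higher, as were 0.428% of all genes tested against 0.177% lower. In the same comparison 4 genes lay higher and 4 lower without overlap, against 16.9% of all genes tested in either direction. The RARa403 libraries of the same cell types gave 3 of 34, against 0.401%, 1 higher (0.347%) and 2 lower (0.0544%), with 5 higher and 3 lower without overlap, against 12.3%. Control spleen ILC1s against control liver NK cells, a comparison across organs that was added after the values were seen, gave 1 of 34, against 0.313%, which was higher (0.292% of all, with 0.0204% lower). There 7 genes lay higher and 2 lower without overlap, against 15.9%. This comparison shares its NK libraries with that of control liver ILC1s. The median log2 fold change of the 34 genes was −0.06, −0.02 and −0.04 in these 3 comparisons, beside 0.03, 0.07 and 0.06 for all genes tested.

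**Figure D3:**
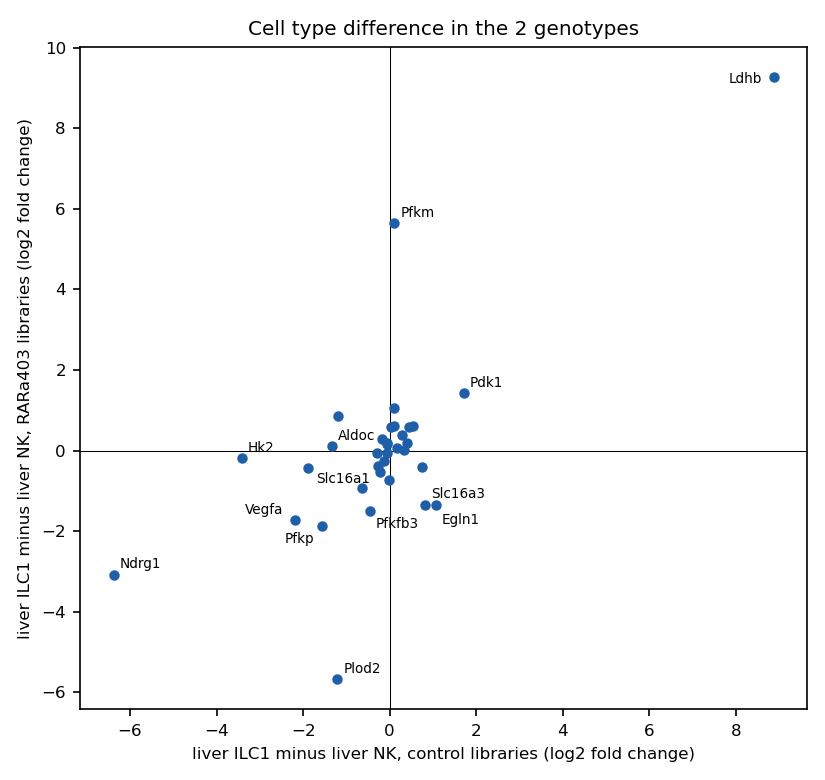
Log2 fold change of liver ILC1s against liver NK cells in control libraries (x axis) and in RARa403 libraries (y axis) for each of the 34 genes (points, with the names of those that lie apart). Ldhb is at the top right, where its position depends on the prior count because NK cells have 0 counts.

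The control and RARa403 comparisons of liver ILC1s with NK cells use different libraries. Of the 34 genes, 26 had the same sign in both, and 28 without liver NK RARa403 library 1. For sameness of sign no share over all genes is given here, so such counts are descriptions only. Past a log2 fold change of 1 were 11 genes in controls and 11 in RARa403 libraries, 6 of them in both with the same sign, beside 28.9% and 37.3% of all genes tested. Without liver NK RARa403 library 1 it was 7 genes in RARa403 libraries.

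RARa403 against control was the comparison of the study, which asks about retinoic acid receptor activity in ILC1s. In liver ILC1s 0 of 34 genes passed, against 0.0% of all genes tested, and 2 had an unadjusted p under 0.05 (edgeR), against 2.94%. DESeq2 called 1 there and limma-voom 0. There 1 gene lay higher and 1 lower without overlap, against 9.53%. In liver NK cells 0 passed, against 0.0%, with 2 at an unadjusted p under 0.05, against 9.64%. DESeq2 called 1 there and limma-voom 0, and 2 lay higher and 2 lower without overlap, against 8.49%. In spleen ILC1s 0 passed, against 0.0%, with 0 at an unadjusted p under 0.05, against 2.89%. With replicates 2 and 3 alone 2 of the 34 had such a p (edgeR), and with limma-voom 4. No share over all genes is given here for these settings. Either other tool called 0, and 1 lay higher and 1 lower without overlap, against 8.99%. The shares without overlap were near those of all genes. For DESeq2 and limma-voom no share over all genes is given here, so their calls cannot be set against it. Settings other than the main fit called at most 43, 523 and 32 of all genes in these comparisons. Median log2 fold changes were −0.01, −0.03 and −0.02, beside 0.00 for all genes in each.

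Precision differed with the level of the gene. Of the 21 genes with a median of at least 5 log2 CPM, the log2 fold change was under 0.5 in size for 20 in liver ILC1s, 15 in liver NK cells and 19 in spleen ILC1s. Its 95% interval lay within a 2-fold change either way for 10, 8 and 10 of them. The SD between libraries of a group had a median of 0.27 log2 for these 21 genes and 0.90 for the 13 lower ones, so the lower genes could have changed by more without passing. Gapdh in liver ILC1s gave −0.54 (SE 0.49), Hk1 −0.28 (SE 0.29), Gpi1 −0.39 (SE 0.54), Pfkp 0.23 (SE 0.37) and Slc16a1 1.23 (SE 1.31), each with an adjusted p of 1. With replicates 2 and 3 alone, which leave out the liver ILC1 RARa403 library whose Gt(ROSA)26Sor lay in the control range, these were −0.22, −0.15, −0.08, 0.10 and 1.07. In liver NK cells Slc16a3 gave 1.76 (SE 0.88, adjusted p = 0.535), Pfkfb3 1.18 (SE 0.79, adjusted p = 0.689), Slc2a1 0.61 (SE 0.42, adjusted p = 0.713), Pfkp 0.55 (SE 0.37, adjusted p = 0.693) and Slc2a3 −0.85 (SE 0.67, adjusted p = 0.758). Without liver NK RARa403 library 1 these became −0.57, −0.18, −0.11, −0.17 and −0.32, so 4 of the 5 turned direction. In spleen ILC1s Bnip3 gave −1.16 (SE 1.03), Slc2a3 −0.58 (SE 0.67), Gpi1 −0.44 (SE 0.54), Pgam1 0.25 (SE 0.33) and Ddit4 0.70 (SE 0.97), each with an adjusted p of 1. With replicates 2 and 3 alone they were −0.23, −0.73, −0.57, −0.03 and 0.72, so Bnip3 came nearer to 0 and Pgam1 turned direction.

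**Figure D4:**
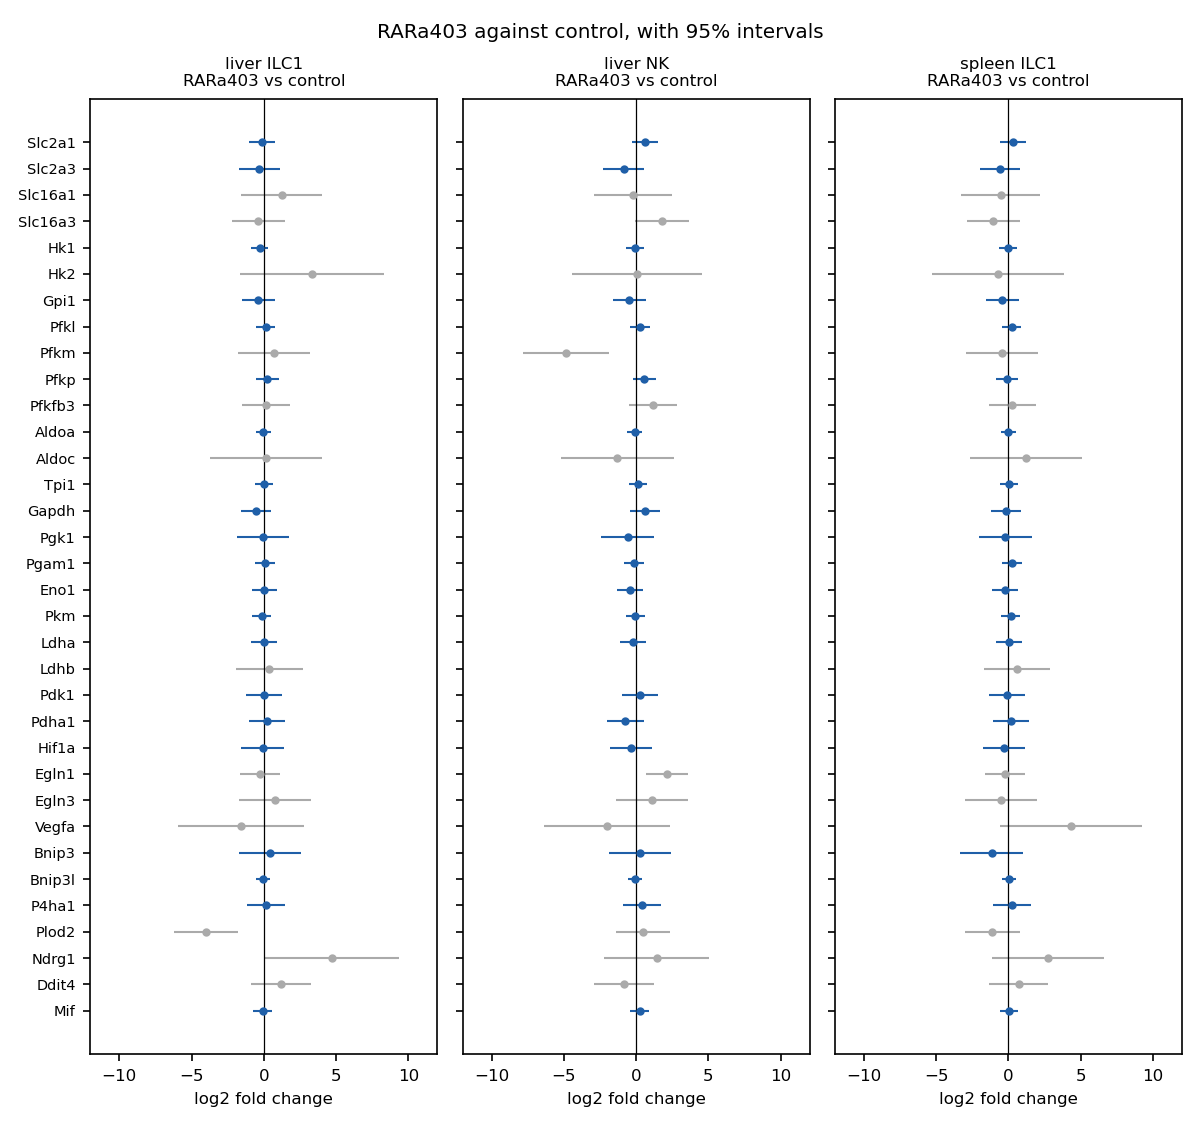
Log2 fold change of RARa403 against control (points) with its 95% interval (bars) for the 34 genes in 3 panels, 1 for each population, blue for the 21 genes with a median of at least 5 log2 CPM and grey for the others. Ldhb is left out in NK cells, where it has 0 counts, and the blue points lie close to 0.

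The RARa403 effect was also compared between populations. For liver ILC1s minus liver NK cells 0 of 34 genes passed, against 0.0% of all genes tested. At an unadjusted p under 0.05 were 3 (edgeR), against 6.20%, and DESeq2 and limma-voom called 0. Those of smallest unadjusted p besides Plod2 were Pfkm at 5.54 (SE 1.79, adjusted p = 0.798) and Egln1 at −2.41 (SE 0.94, adjusted p = 0.798). Without liver NK RARa403 library 1 they were 5.11 and −1.19. For spleen minus liver ILC1s 0 passed, against 0.0%, with 1 at an unadjusted p under 0.05, against 2.70%, and 0 by either other tool. Vegfa was the largest in size there, at 5.91 (SE 3.06), and did not pass.

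Organ was compared in control ILC1s. Between control spleen and control liver ILC1s 0 of 34 genes passed, against 0.0% of all genes tested. At an unadjusted p under 0.05 were 0 (edgeR), against 3.18%, and DESeq2 and limma-voom called 0. Only Egln3 lay apart, higher in spleen, against 8.91% of all genes tested without overlap. Slc16a1 gave 1.58 (SE 1.32), Hk1 −0.38 (SE 0.29), Pfkp 0.36 (SE 0.37), Gapdh −0.45 (SE 0.49) and Slc2a3 −0.42 (SE 0.67), each with an adjusted p of 1, and the median log2 fold change was 0.01. The lowly expressed Vegfa gave −3.25 (SE 2.22, adjusted p = 1), and the 95% interval lay within a 2-fold change either way for 10 of the 34 genes, and reached past it for the others.

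**Figure D5:**
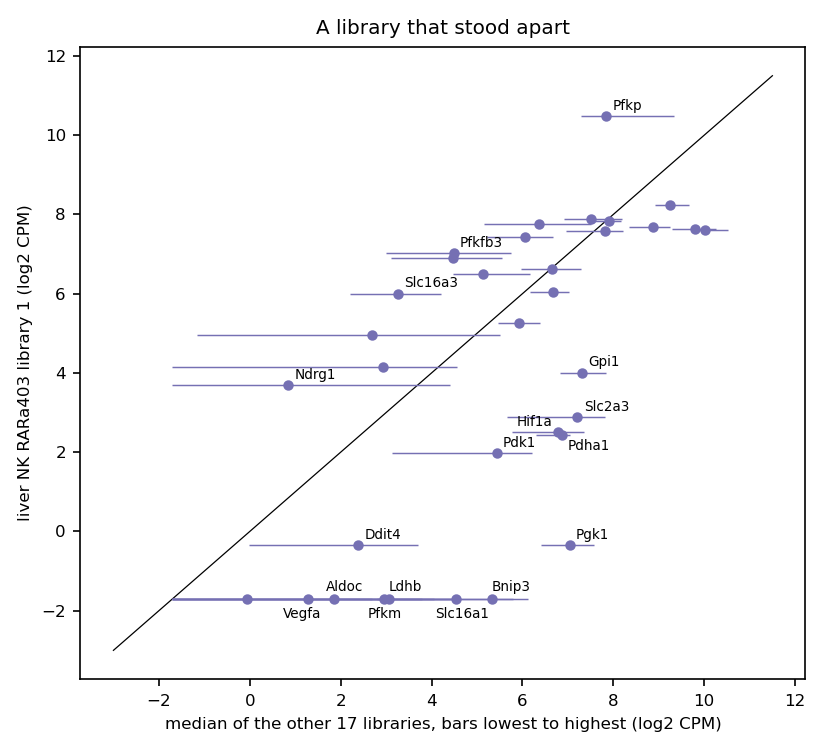
Level of the 34 genes in liver NK RARa403 library 1 (y axis) against the median of the other 17 libraries (x axis, bars from lowest to highest), both in log2 CPM, with the line of equality. Pgk1, Bnip3 and Slc16a1 lie far below the line and Pfkp above it.

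In liver NK RARa403 library 1 some abundant transcripts of the pathway were very low while others were high. Pgk1 stood at −0.34 log2 CPM against 6.41 to 7.57 elsewhere, Hif1a at 2.5 against 5.78 to 7.35, Slc2a3 at 2.88 against 5.65 to 7.81, and Bnip3 had 0 counts. Pfkp at 10.49, Slc2a1 at 7.44, Pfkfb3 at 7.03, Egln1 at 6.91 and Slc16a3 at 6.00 were each the highest of the 18 libraries.

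Further genes of the pathways were counted in the same way. Of 154 listed genes in 7 lists (other glycolytic isoforms, pyruvate entry into mitochondria, the pentose phosphate pathway, further transporters, HIF regulators, further hypoxia-induced genes, and growth and energy sensing), 129 were tested, and 0 passed in any of the 9 comparisons (edgeR). At an unadjusted p under 0.05 were 5, 20 and 0 of them for RARa403 against control in the liver ILC1, liver NK and spleen ILC1 populations, beside 2.94%, 9.64% and 2.89% of all genes tested. Without liver NK RARa403 library 1 the count in liver NK cells was 5 of 135. With replicates 2 and 3 alone the counts in these populations were 5, 5 and 6 of 126. No share over all genes is given here for these settings. In the same order DESeq2, which tested 139, called 0, 2 and 0, and limma-voom 0 each. Between control liver ILC1s and NK cells 13 (10.1%) had an unadjusted p under 0.05, beside 7.91% of all genes tested. DESeq2 called 4 there and limma-voom 5. Slc16a10, an aromatic amino acid transporter, had the smallest p there, with a log2 fold change of 5.68 (SE 1.29, adjusted p = 0.0652). Among RARa403 libraries of these cells 23 (17.8%) had an unadjusted p under 0.05, beside 12.3% of all genes tested, with 5 and 2 called by the other tools. The remaining counts at that unadjusted p were 2 for control spleen against liver ILC1s and 9 for control spleen ILC1s against liver NK cells. For the differences of the RARa403 effect they were 12 and 0. In the same order 3.18%, 7.07%, 6.20% and 2.70% of all genes tested had such a p. There DESeq2 called 0, 5, 1 and 0 and limma-voom 0, 2, 0 and 0. Shares over all genes are not given here for these other tools, so their counts cannot be set against them. In liver NK cells 11 of the 28 growth and energy sensing genes had an unadjusted p under 0.05 for RARa403 against control, among them Mtor, its binding partner Rictor, the inhibitor Tsc1 and Srebf2, beside the same 9.64% of all genes tested. Without liver NK RARa403 library 1 it was 0 of 28.

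Within groups the members did not move as a block. Over the 21 better expressed genes and 17 libraries, with group means removed, the median correlation of 210 pairs was 0.07, from −0.73 to 0.85. The most alike pairs were Gpi1 and Aldoa (0.85), Tpi1 and Gapdh (0.83) and Pkm and Ldha (0.80), and these correlations share the depth and composition of each library and describe it only.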

How the data were processed

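The deposited values are raw gene counts that, per the submitters' processing notes, came from fastp 0.23.0, HISAT2 2.1.0 and featureCounts of Subread 1.6.5 with the mm10 build. Not given in the sources used here: annotation release, strandedness, and handling of multi-mapping reads. Genes that share sequence or overlap are therefore uncertain. Each of the 18 libraries was made from 200 sorted cells.

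Counts were fitted with edgeR 4.0.16 (R 4.3.3) as 6 group means over all 18 libraries, with TMM scaling, filterByExpr at a minimum count of 10 and the quasi-likelihood test. P-values were adjusted by Benjamini-Hochberg over 14714 genes, with a threshold of 0.05. The common biological coefficient of variation was 0.862. Levels were computed as log2 CPM, prior count 2. The script was tested on simulated data. DESeq2 1.42.0, limma-voom (limma 3.58.1), other scaling, no filter, a replicate block, a term for the code in the descriptions and left-out libraries were the alternatives. Fits without liver NK RARa403 library 1 and fits of replicates 2 and 3 alone were among them. The code in the descriptions began with 1 for library 1 of every group and with 2 for libraries 2 and 3. Fits of replicates 2 and 3 alone thus kept only libraries whose code began with 2. The comparison of spleen ILC1s with liver NK cells, and the Ldhb bounds with a library left out, were added after the data had been seen. A floor is 3 counts, and intervals and floors cover counting error only.

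The 34 genes and all lists were chosen with earlier results of these data known. Genes named with a test were those past the threshold in a comparison, and otherwise up to 6 with the smallest unadjusted p and a group mean of at least 3 log2 CPM. A level in each library is given for genes past the threshold and for a list of 24 symbols. Pfkm's levels, genes named only because their groups did not overlap, and the genes named from the further lists were chosen after their values were seen.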

Additional observations from a re-analysis of the deposited data

How the results depend on the processing

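Counts of the 34 genes called changed with the processing. For control liver ILC1s against NK cells the count of 1 became 2 with DESeq2, 3 with limma-voom, 2 without the filter, 2 with only the groups compared, 0 with a replicate block and 3 without liver NK RARa403 library 1 in the shared fit, and 0 to 0 when 1 library was left out. Among RARa403 libraries the count of 3 became 0 with only the groups compared, 1 with a replicate block, 1 with the description code as a term and 1 without liver NK RARa403 library 1, and 0 to 3 when 1 library was left out. For control spleen ILC1s against liver NK cells the count of 1 became 2 with limma-voom, 0 with only the groups compared, 0 with a replicate block, 0 with the description code, 2 without liver NK RARa403 library 1 and 0 with replicates 2 and 3 alone, and 0 to 1 when 1 library was left out. RARa403 against control rose from 0 to 1 with DESeq2 for liver ILC1s, and to 1 for liver NK cells. With a prior count of 0.5, 3 of 36 list means moved by more than their SD: that of liver ILC1 RARa403 libraries to 5.16, of liver NK control libraries to 5.29 and of spleen ILC1 control libraries to 5.27 log2 CPM. Whether the replicate numbers pair the libraries could not be settled. The correlation of deviations ran from −0.033 to 0.246 over 45 same-numbered pairs, with 5 above 0.1. Pairs of different numbers were not set beside them. Of 956 values of named genes under alternatives, 24 had the other sign. The cause of these changes was not tested. Over all genes, control liver ILC1s against NK cells gave 89 calls, 69 to 479 under other settings and 18 to 55 with 1 library left out. The RARa403 libraries gave 59, 0 to 794 and 18 to 254, and spleen ILC1s against NK cells 46, 25 to 339 and 7 to 34. RARa403 against control gave 0 in each population, and at most 43, 523 and 32 under other settings. Depth limits Hk2, Aldoc, Vegfa, Ndrg1 and Ldhb most, with 0 counts in several libraries.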
